A study of Mus musculus with 6 samples.

Results

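The genes described here are 9 transcription factors of the embryonic heart fields: Isl1, Nkx2-5, Mef2c, Hand1, Hand2, Gata4, Gata5, Gata6 and Osr1. All peaks of 2 GLI3R peak lists with a summit within 100 kb of one of these genes on mm10 were assigned to it. This gave 15 of the 3640 peaks of cells given doxycycline and 2 of the 4379 peaks of untreated cells, at 9 of 21883 protein-coding genes. GLI3R is the repressor form of GLI3, a zinc finger protein that keeps Hedgehog target genes off when no ligand is present. The cells were cardiac progenitors made from A2Lox.cre mouse embryonic stem cells of the line GLI3R-FTA and collected on day 6. Treated cells received doxycycline at 500 ng/ml for the last 24 h to induce the tagged GLI3R, and the other cells of the same line were left untreated. The tagged protein was recovered on streptavidin beads in 2 pull-downs of doxycycline-treated and 2 of untreated cells, with 1 input library for each condition. All 6 libraries carry the same transgene in 1 line, so induced GLI3R and doxycycline itself cannot be told apart. Each condition has 1 deposited peak list, so no value below has a replicate error and no difference between the conditions could be tested. Peak lists hold no expression values, so the labelled cell type was not checked against its markers.

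The heart is built from mesodermal progenitors of the first heart field, which form much of the left ventricle, and of the second heart field, which add the outflow tract, the right ventricle and much of the atria. Isl1 marks second heart field progenitors, and Nkx2-5, Mef2c, the GATA factors and the HAND factors act together in both fields to switch on the muscle genes of the heart. Hedgehog ligand from the endoderm reaches the posterior part of the second heart field, where Osr1 is expressed and where progenitors of the atrial septum arise.

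The promoter sequences of Isl1 and Gm34030 are shown because doxycycline peaks lay beside or across them, and that of Hand2 because it is the factor gene nearest to the Gm34030 peak. They come from RefSeq on GRCm38.p6, the assembly of mm10, and run 5′ to 3′ on the strand of the gene. Those of Isl1 and Hand2 span 250 bases before to 50 bases after the gene start. The table had windows for 5 of the 9 genes, namely Isl1, Nkx2-5, Mef2c, Hand2 and Gata5. The Isl1 window (chr13:116309639-116309938, minus strand) began 130 bases beyond the end of a doxycycline peak that lies inside the gene. The capitals mark its closest match to the GLI consensus GACCACCCA on either strand, which has 2 mismatches.
Isl1: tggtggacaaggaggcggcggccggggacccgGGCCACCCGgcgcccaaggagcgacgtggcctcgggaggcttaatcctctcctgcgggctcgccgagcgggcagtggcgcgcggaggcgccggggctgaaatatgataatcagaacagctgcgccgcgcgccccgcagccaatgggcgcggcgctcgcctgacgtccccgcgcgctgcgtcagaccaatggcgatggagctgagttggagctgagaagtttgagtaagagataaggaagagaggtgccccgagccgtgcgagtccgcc
The Hand2 window (chr8:57320733-57321032, plus strand) held no peak, and its capitals mark 2 overlapping matches on opposite strands with 2 mismatches each.
Hand2: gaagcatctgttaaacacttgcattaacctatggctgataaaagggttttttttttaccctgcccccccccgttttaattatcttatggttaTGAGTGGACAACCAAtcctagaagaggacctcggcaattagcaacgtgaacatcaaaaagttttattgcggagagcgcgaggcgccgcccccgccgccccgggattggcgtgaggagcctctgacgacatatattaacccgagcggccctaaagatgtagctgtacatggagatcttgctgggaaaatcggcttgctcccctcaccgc
Gm34030 is a long non-coding RNA gene downstream of Hand2, and its window (chr8:57333690-57333989, minus strand) ran into the strongest doxycycline peak at Hand2. This window lies inside the interval that the gene table gives for Gm34030 (57331691 to 57335140), not at its end. The capitals mark the 36 bases under that peak.
Gm34030: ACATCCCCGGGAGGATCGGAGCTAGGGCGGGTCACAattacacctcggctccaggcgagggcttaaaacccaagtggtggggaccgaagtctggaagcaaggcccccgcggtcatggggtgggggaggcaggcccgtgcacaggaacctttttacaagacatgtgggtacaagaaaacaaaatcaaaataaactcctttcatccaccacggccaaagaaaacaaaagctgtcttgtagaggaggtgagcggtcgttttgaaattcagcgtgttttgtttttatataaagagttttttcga

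How often these letters occur by the same search in other promoters sets the scale for the matches. None of the 5 genes had a window with at most 1 mismatch to GACCACCCA on either strand, a match that 6.74% of all 32851 RefSeq promoter windows hold. With up to 2 mismatches 5 of the 7 windows of these genes had one, beside 58.3% of all windows. The 2 without were that of Nkx2-5 and 1 of the 3 windows of Mef2c. The windows of Nkx2-5 and Gata5, and those of Mef2c other than the one at its start, lie inside the gene interval and not at its end. These letters were searched in the promoter windows only, since sequence under the other peaks was not analysed here.

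Doxycycline peaks lay near 7 of the 9 genes and untreated peaks near 1. With doxycycline, a summit stood within 100 kb of Isl1, Hand1, Hand2, Gata4, Gata5, Gata6 and Osr1, while over all protein-coding genes 31.3% did. In untreated cells Hand1 alone had any, against 30.2% of all genes, and Hand1 was thus the only one with summits of both lists (10.3% of all genes). Further, 6 of the 9 genes had a doxycycline but no untreated summit, as did 21.1% of all genes. None of the 9 had an untreated but no doxycycline summit, as did 19.9% of all genes. Mef2c and Nkx2-5 had neither, as 48.7% of all genes. The median number of doxycycline summits within 100 kb was 2 at the heart field factors and 0 over all genes, and the median number of untreated summits was 0 in both.

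**Figure D1:**
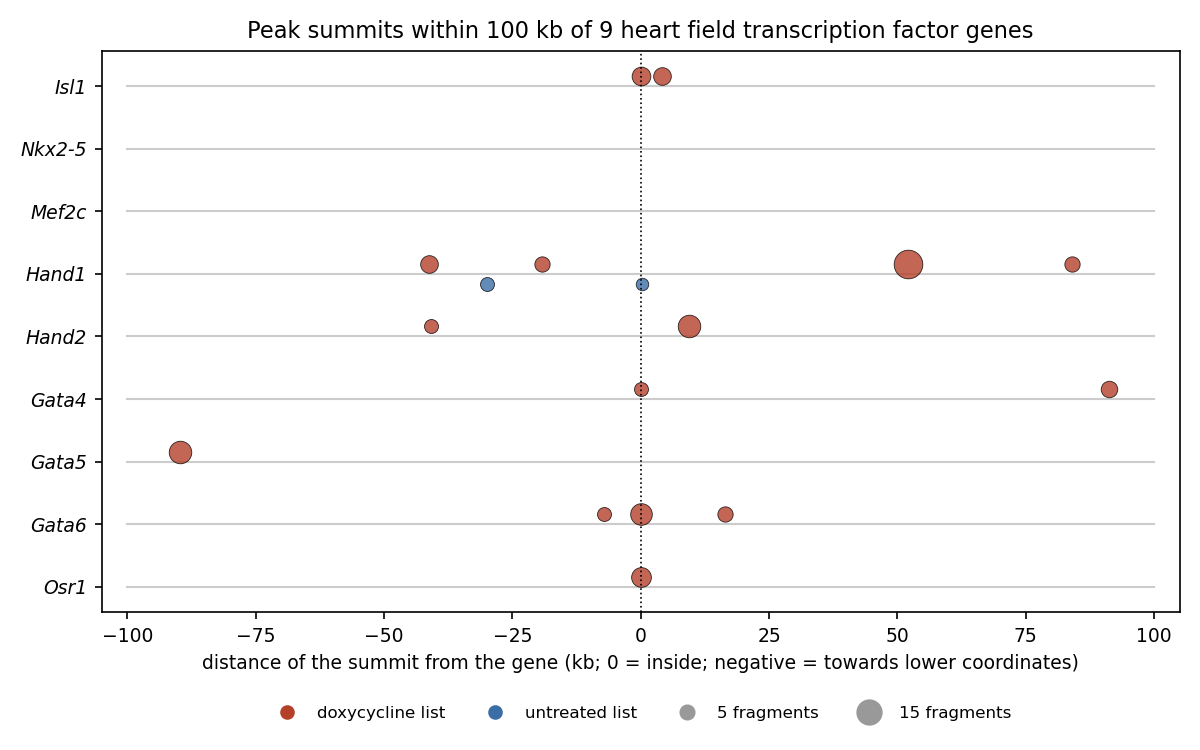
Position of each peak summit relative to its gene (horizontal axis, kb from the gene, 0 inside it, negative towards lower chromosome coordinates) for the 9 genes (rows), with the doxycycline list in red above the untreated list in blue and the area of a point proportional to the fragments over the summit. Doxycycline summits stand at 7 genes, the 2 untreated summits both stand at Hand1, and the rows of Nkx2-5 and Mef2c are empty.

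At shorter distances the doxycycline list again had more of the 9 genes than the untreated list. In the doxycycline list 4 genes held a summit inside the gene (6.16% of all genes), namely Isl1, Gata4, Gata6 and Osr1. Within 10 kb Hand2 joined them to make 5 (9.55% of all genes). The untreated list had 0 of the 9 with a summit inside the gene (5.96% of all genes) and 1 within 10 kb (8.60%). Within 50 kb the counts were 6 (20.0%) with doxycycline and 1 (18.8%) without, and within 200 kb they were 8 (48.8%) and 4 (47.6%). Within 500 kb the lists were nearly level, at 9 (75.3%) and 8 (76.6%). Of the 15 doxycycline summits, 4 lay inside a gene of the group, 3 outside it within 10 kb, 4 from 10 to 50 kb and 4 from 50 to 100 kb away. For 10 of the 15 the factor was also the nearest protein-coding gene. These splits were not made for the whole list, and 5 of the 9 genes have no other protein-coding gene within 100 kb.

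**Figure D2:**
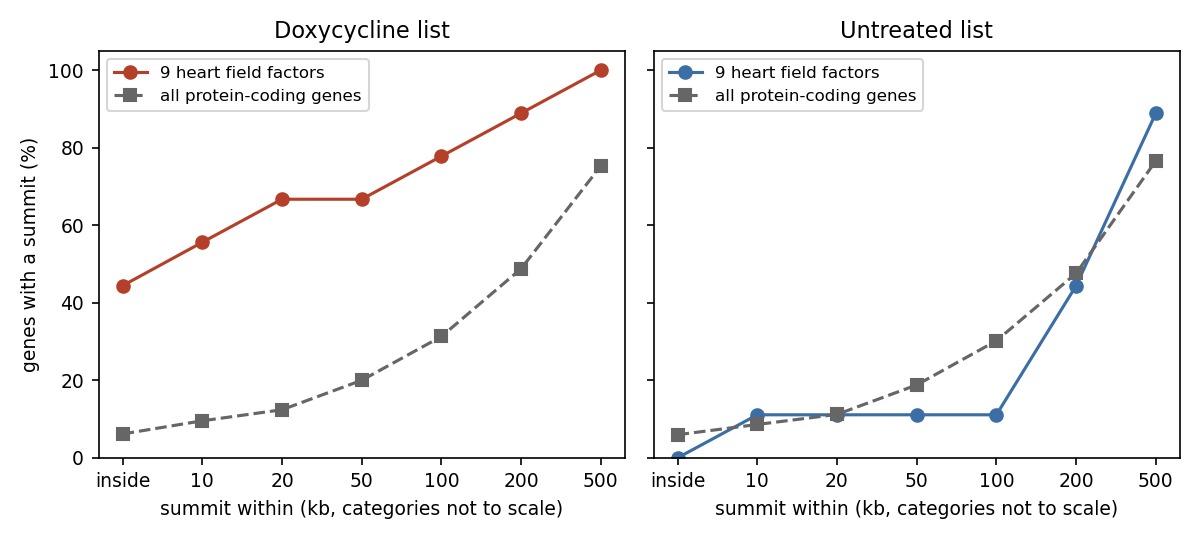
Percentage of genes with a summit (vertical axis) inside the gene or within increasing distances of it (horizontal axis, kb) for the 9 heart field factors (coloured circles) and all protein-coding genes (grey squares), with the doxycycline list on the left and the untreated list on the right. In the doxycycline list the factors are at 44.4% inside the gene and 77.8% within 100 kb, against 6.16% and 31.3% of all genes, while in the untreated list they are at 0 and 11.1%, against 5.96% and 30.2%.

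A peak is described below by its fold enrichment and −log10 q, which are the authors' values, and by its pileup, the number of fragments over the summit worked back from them. A pileup is given with an exact Poisson 95% interval, which covers counting error only. The doxycycline list had a median pileup of 7 and the untreated list a median of 5.

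Isl1, the LIM-homeodomain factor that marks second heart field progenitors, had 2 doxycycline peaks at its start. The one with the higher fold (chromosome 13, 116309222 to 116309508) had 9 fragments (4.12 to 17.1), a 6.95-fold enrichment and a −log10 q of 6.03, and its summit lay 0.380 kb inside the gene from the transcription start. The other (116313703 to 116313937), 4.16 kb upstream, had 8 fragments (3.45 to 15.8) at 5.90-fold. The intervals of the pair overlap. The nearest untreated summit was 182 kb away, with 6 fragments at 5.50-fold. Isl1 stands alone, with no other protein-coding gene within 100 kb.

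Nkx2-5, the homeodomain factor of the early heart, and Mef2c, the MADS-box factor that works with it on muscle genes, had no summit in either list. The nearest doxycycline summit to Nkx2-5 was 324 kb away with 15 fragments, and the protein-coding gene nearest to that summit was Dusp1, at 6.42 kb. The nearest untreated summit to Nkx2-5 was 699 kb away with 4 fragments. Mef2c had its nearest doxycycline summit 173 kb upstream (chromosome 13, 83330999 to 83331199). That peak had 13 fragments at 10.2-fold. It lay inside the long non-coding RNA gene Gm33217, and Mef2c was the nearest protein-coding gene. The nearest untreated summit to Mef2c lay 399 kb away, with 6 fragments. Mef2c is the longest of the 9 genes at 163 kb, so its window was also the widest.

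Hand1 and Hand2 encode basic helix-loop-helix partners, Hand1 acting mainly in the left and Hand2 in the right ventricle and outflow tract of the mouse. Hand1 had 4 doxycycline summits within 100 kb, a number or more that 0.667% of all genes had. The strongest of all 15 peaks lay 52.0 kb from it in an intergenic stretch (chromosome 11, 57883994 to 57884301), with 21 fragments (13 to 32.1), a 16.1-fold enrichment and a −log10 q of 25.5. It ranked 54th of 3640 in its list, and Hand1 was the nearest protein-coding gene. The other Hand1 peaks had fewer fragments and lay closer to other genes. One with 8 fragments, 41.3 kb away, lay inside Galnt10, which encodes an enzyme of protein O-glycosylation. One with 6 fragments, 19.2 kb away, lay inside Sap30l, which encodes a relative of a subunit of the Sin3 corepressor complex. The last, with 6 fragments at 84.1 kb, lay inside the long non-coding RNA gene Gm33078 and nearer to Larp1, an RNA-binding protein gene.

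The only untreated summits at the 9 genes were at Hand1. One stood 0.303 kb outside the gene with 4 fragments (1.09 to 10.2) at 3.93-fold, inside the long non-coding RNA gene Gm32915. The other stood 29.9 kb away with 5 fragments (1.62 to 11.7) at 4.54-fold, 2.85 kb from Sap30l. The smallest pileup of that list was 4, so both stood at or just above its lower limit. Neither overlapped a doxycycline peak, as did only 1.71% of the whole untreated list. The closest pair of summits of the 2 lists was 10.7 kb apart.

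Hand2 had a strong doxycycline peak 9.51 kb downstream of the gene (chromosome 8, 57333954 to 57334149), with 13 fragments (6.92 to 22.2), 9.93-fold enrichment and a −log10 q of 11.7. It ranked 254th in its list. The summit lay inside Hdnr, the long non-coding RNA gene also called handsdown, and inside Gm34030, whose promoter sequence is printed above. A summit 40.8 kb upstream had 5 fragments (1.62 to 11.7) at 4.01-fold and ranked 3623rd of 3640, near the end of the list. The nearest untreated summit to Hand2 was 209 kb away with 4 fragments.

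Gata4, Gata5 and Gata6 encode zinc finger factors that bind GATA sites in heart and endoderm genes, and they differed in where their peaks lay. Gata6 had 3 doxycycline summits on chromosome 18. The strongest lay inside the gene, 0.752 kb from one end, with 12 fragments (6.20 to 21.0) at 9.50-fold. A peak of 5 fragments lay 7.21 kb away inside Gata6os, the divergent long non-coding RNA gene, and one of 6 fragments lay 16.3 kb away on the other side. No other protein-coding gene lay within 100 kb of Gata6, and its nearest untreated summit was 299 kb away with 4 fragments. At least 2 doxycycline summits were found at 5 of the 9 genes (7.83% of all genes) and at least 2 untreated summits at 1 (6.13%). At least 3 doxycycline summits were found at 2 of the 9 genes, Gata6 and Hand1, against 2.01% of all genes.

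Gata4 had a doxycycline peak inside the gene (chromosome 14, 63255762 to 63255919) with 5 fragments (1.62 to 11.7) at 4.39-fold, the smallest pileup of that list. A second summit, 91.3 kb away, had 7 fragments at 5.85-fold and lay nearer to Blk, a kinase gene of B cells. Gata5 had a single doxycycline peak, 89.8 kb downstream (chromosome 2, 180235199 to 180235409), with 13 fragments (6.92 to 22.2) at 9.0-fold. Its nearest gene was Lama5, a laminin chain gene, 9.40 kb away. The nearest untreated summits were 194 kb from Gata4, with 4 fragments, and 119 kb from Gata5, with 5. These peaks lie near the limit of the window, which took in Gata4 at 91.3 kb and Gata5 at 89.8 kb and left out the untreated summit 119 kb from Gata5.

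Osr1, a zinc finger factor of the posterior second heart field and the intermediate mesoderm, had 1 doxycycline peak inside the gene (chromosome 12, 9579466 to 9579925). It had 10 fragments (4.80 to 18.4), 7.97-fold enrichment and a −log10 q of 7.89. At 460 bp it was the widest of the 15, against a median of 160 bp over its list. The nearest untreated summit was 427 kb away with 5 fragments.

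**Figure D3:**
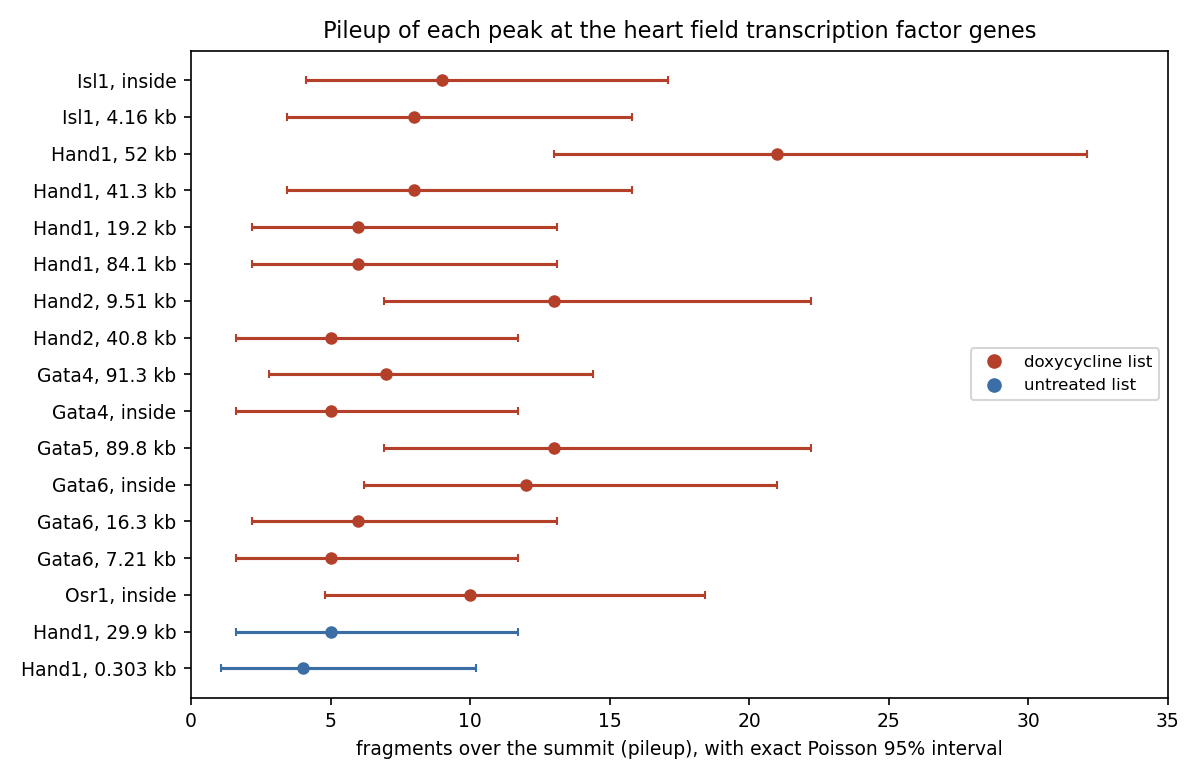
Fragments over the summit of each peak at the 9 genes (horizontal axis) with exact Poisson 95% intervals, one row per peak with its gene and its distance, the 15 doxycycline peaks in red above the 2 untreated peaks in blue. The Hand1 peak at 52.0 kb has 21 fragments, those at Hand2 (9.51 kb) and Gata5 have 13, and 10 of the 15 doxycycline peaks and both untreated peaks have fewer than 10, with wide intervals.

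Among themselves the doxycycline peaks ran from 5 to 21 fragments with a median of 8, and from 4.01-fold to 16.1-fold with a median of 5.90-fold, beside medians of 7 fragments and 5.50-fold over that list. Peaks with at least 10 fragments were found at 5 genes (Hand1, Hand2, Gata5, Gata6 and Osr1), against 7.54% of all genes. A −log10 q of 5 or more was reached at 6, the same and Isl1, against 13.7% of all genes. With 5 fragments or more, as all doxycycline peaks had, 1 gene kept an untreated peak, against 20.7% of all genes. No untreated peak at these genes reached either level, which 0.800% and 3.33% of all genes had. The local expectation under the doxycycline peaks ran from 0.368 to 0.556 fragments, and 7 of the 15 were at 0.368, the most frequent value of that list.

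None of the 15 doxycycline peaks at these genes overlapped an untreated peak. Over that whole list 2.01% did. The smallest pileup in the untreated list was 4 fragments, which is 3.93-fold at the most frequent expectation of 0.272 fragments, and the lowest fold listed was 3.72. At the lower bound of their counting intervals 5 of the 15 doxycycline peaks were still above 3.93-fold, those at Hand1 (52.0 kb), Hand2 (9.51 kb), Gata5, Gata6 (inside) and Osr1. That mark leaves out the counting error of the untreated list. A pileup of 3, the largest below its limit, has an upper bound of 8.77 fragments, which is 7.68-fold at that expectation. Only 1 of the 15 lower bounds was above 7.68-fold, that of the Hand1 peak at 10.2-fold. The shares of the whole doxycycline list above these marks are not given here. The untreated pileup at these positions is not in the lists, so this is a description of the doxycycline peaks and no test between conditions.

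Several of the 9 genes have no close protein-coding neighbour. Of the 9, 5 (Isl1, Mef2c, Hand2, Gata6 and Osr1) had no other protein-coding gene within 100 kb, while Nkx2-5 had 6. Doxycycline summits were near 4 of these 5 and untreated summits near 0. Over all 1181 genes with no neighbour in that range, 27.5% had a doxycycline and 34.5% an untreated summit. This split was chosen after the values were seen.

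Other genes of the heart fields and relatives of the 9 factors are given for comparison. Of 36 further heart field genes, 16 lay within 100 kb of a doxycycline summit (44.4%, beside 31.3% of all genes). An untreated summit lay near 13 (36.1%, beside 30.2%), with 10 in the doxycycline list alone and 7 in the untreated list alone. Neighbouring genes can share a peak, so the 16 were not all counted through separate peaks. The strongest doxycycline peaks were at Tbx3, a T-box repressor of the conduction system (10.2-fold, 13 fragments, 18.8 kb away), and at Wnt11, a non-canonical WNT ligand (8.01-fold, 10 fragments, 76.4 kb). Next came Wnt2, a WNT ligand of the posterior second heart field (7.31-fold, 60.3 kb), and Hoxb1, a homeobox gene of second heart field progenitors (7.24-fold, 3.20 kb). Of these 4, which were picked by their doxycycline peaks, Wnt2 also had an untreated summit, of 5 fragments at 34.9 kb. A −log10 q of 5 or more was reached at 9 of the 36 with doxycycline (13.7% of all genes). Without doxycycline it was reached at 2 (3.33%), Fgf10 and Tbx20. Fgf10 had an untreated peak of 7.63-fold beside a doxycycline peak of 5.85-fold, and Tbx20 had only an untreated peak, of 7.07-fold.

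Of 14 paralogues, 6 had a doxycycline summit (42.9%) and 2 an untreated one (14.3%). The strongest were at Gata2, a factor of blood and endothelium (10.4-fold, 14 fragments, 70.0 kb away), and Gata3, a factor of T cells and neural crest (7.31-fold, 9 fragments, inside the gene). Mef2a had 2 doxycycline summits (the best 5.85-fold, 32.6 kb away) where Mef2c had none within 100 kb. Isl2 had 2 (the best 5.12-fold, 6.80 kb away), as did Isl1. None of these 4 had an untreated summit. The relatives of Nkx2-5 with a doxycycline summit were Nkx2-1 and Nkx2-9, which share 1 peak of 5 fragments at 4.39-fold. Nkx2-1 also had an untreated summit, of 5 fragments at 4.72-fold, 32.4 kb away. Osr2 had no summit in either list.

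**Figure D4:**
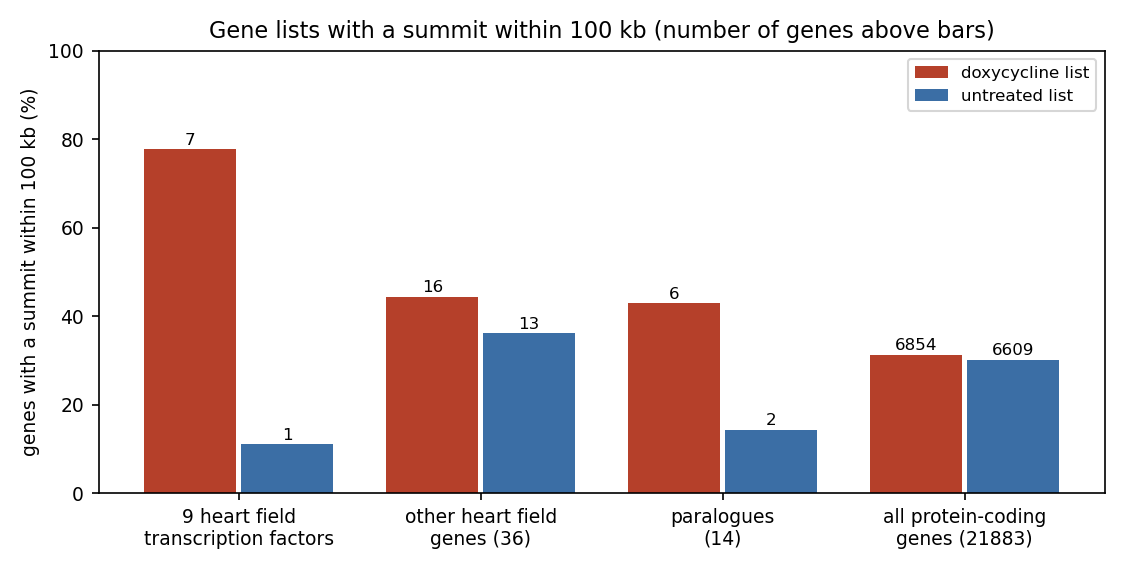
Percentage of genes with a summit within 100 kb (vertical axis) for the 9 heart field factors, 36 other heart field genes, 14 paralogues and all protein-coding genes (horizontal axis), doxycycline list in red left of the untreated list in blue, with the number of genes above each bar. The factors are at 77.8% and 11.1%, the other heart field genes at 44.4% and 36.1%, the paralogues at 42.9% and 14.3%, and all genes at 31.3% and 30.2%.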

How the data were processed

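The data were 1 ChIP-seq peak list per condition. The submitters' processing notes name the mm10 build, MACS2 2.1.1, SAMtools 1.5 and Bowtie2 2.3.2. For their settings, the use of the inputs and any pooling of the pull-downs, the sources used here state nothing. Groups follow the sample titles, which say GLI3R although the labels' treatment protocol says GLI1.

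Each peak's fold enrichment is a ratio given in the authors' lists, and −log10 p and −log10 q were likewise deposited by the authors. The deposited score repeats the −log10 q and was not used. Rows that share an interval were merged and the best summit kept (3725 rows gave 3640 peaks with doxycycline, and 4428 gave 4379 without). The pileup was solved for by taking the fold as (pileup + 1) / (expectation + 1) and the p as a Poisson upper tail. Whole numbers solved 99.75% of doxycycline and 99.84% of untreated peaks to within 0.01 in −log10 p. Total depth was not analysed here.

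Distances run from the summit to the gene interval of 21883 protein-coding genes in a RefSeq table (GRCm38.p6, which mm10 corresponds to). Strand came from the promoter table, so upstream and downstream are given only for genes in it. A peak near a gene is not thereby its regulator. With 1 list per condition no test was made, and counts are set beside the same counts over all genes. The members and lists were chosen with earlier results of these data known. The named genes are the 9 factors, the nearest gene to a peak where it is another, and the 4 genes with the highest −log10 q in each further list. Fgf10, Tbx20, Nkx2-1, Nkx2-9 and Osr2, outside this rule, were named after their values were seen. Pileups and distances were tested on simulated data. The software was scipy 1.17.1, numpy 2.4.6, matplotlib 3.10.9 and pandas 2.3.3 under Python 3.11.15.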

Additional observations from a re-analysis of the deposited data

How the results depend on the processing

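The doxycycline list was ahead of the untreated list at the 9 factors under every alternative run. In the runs that kept all 9 factors, the number with a doxycycline summit ran from 5 (within 10 kb) to 8 (within 200 kb), against 7 as reported. With −log10 q of at least 5, and likewise among the top 1000 peaks, there were 6 doxycycline and 0 untreated peaks (a difference of 6, against 13 as reported), at 6 and 0 factors. That −log10 q was reached by 1211 of all 3640 doxycycline and 412 of all 4379 untreated peaks. It thus favours the doxycycline list at all genes (13.7% against 3.33%). No share of all genes is given for the top 1000 peaks, so that count cannot be read as particular to these factors. Within 10 kb there were 7 and 1 peaks (difference 6). Within 200 kb the untreated list had 5 peaks at 4 factors, beside 17 doxycycline peaks at 8. The untreated list had 1 peak where 5 fragments were required, and 1 where the factor had to be the nearest protein-coding gene. At the 5 isolated factors, a choice made after seeing the data, 8 doxycycline and 0 untreated peaks lay at 4 and 0 factors (difference 8). Counting all rows, measuring from the edge of a peak or to the nearer gene end changed no count. The overlap rules left 0 shared peaks. With up to 2 mismatches 4 of 5 genes had a promoter match, against 0 as reported. Such a match is common, at 58.3% of all windows. A gene with several windows counts through any of them, and no share per gene is given. No paired analysis was possible because there is a single list for each condition, without values per replicate. Of the 15 doxycycline peaks 10, and both untreated peaks, had fewer than 10 fragments, and a gene without a listed peak may only have missed the threshold.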
